A study of Mus musculus with 58 samples.

Results

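Lysosomal genes other than cathepsins were followed across 34 count tables of mouse microglia. The 41 genes were taken by name, out of 47643 genes counted, and cover 13 hydrolases, 3 luminal proteins that are no hydrolases, 8 membrane proteins, 2 transcription factors, 2 Rab GTPases, 5 V0, 6 V1 and 2 accessory subunits of the proton pump. All 41 were found in the tables. The choice was made by name, but with earlier results of these data known. It includes Lamp1, Grn and Rab34, which the study reported as upregulated in microglia of the tau mouse model used here. The study asked how microglia respond to tau and what part the NF-κB pathway, switched on by the kinase IKKβ (gene Ikbkb), has in that response. Primary wild-type microglia were given fibrils of full-length tau (2 µg/ml, 24 h) or vehicle, with 4 libraries in each group. Adult microglia came from male PS19 mice, which carry the human P301S tau transgene, and from male non-transgenic (NTG) mice (4 libraries each, aged 10.98 to 11.18 months). In the IkbkbCA experiment, primary microglia carried a floxed-stop transgene for constitutively active IKKβ in the Rosa locus, with Cx3cr1-CreERT2 (IkbkbCA) or without Cre (IkbkbWT), 5 libraries each. In the deletion experiment, primary microglia carried floxed Ikbkb, with Cx3cr1-CreERT2 (Ikbkb-/-) or without Cre (Ikbkb+/+), 4 libraries each. All 4 groups of these 2 experiments were exposed to 4-hydroxytamoxifen in mixed glial culture. Each Cre group thus differs from its control by the Cre allele, which replaces 1 copy of Cx3cr1, as well as by its Ikbkb state, and these cannot be told apart within an experiment.

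Lysosomes are acid compartments in which hydrolases break down proteins, lipids and sugars taken up by phagocytosis and autophagy. The V-ATPase, a membrane V0 sector joined to a cytosolic V1 sector, pumps the protons that keep the lumen acid, and membrane proteins such as LAMP1 and LAMP2 line the organelle. TFEB and TFE3 enter the nucleus when lysosomes are under load and switch on lysosomal genes through the CLEAR element, a DNA motif built around an E-box. Microglia rely on this system to clear debris and aggregated protein, and lack of progranulin (Grn) leads to lysosomal failure in brain.

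Because TFEB and TFE3 are themselves on the list, the E-box sites of the list's promoters are shown first. RefSeq promoters (GRCm38.p6), each 250 bases before to 50 after a start site, were found for 35 of the 41 genes. The 6 genes without an entry were Atp6v0d2, Atp6v1h, Atp6v1b2, Npc1, Asah1 and Atp6v1c1. The letters CACGTG, which read the same on both strands, were present in promoters of 9 of the 35 (25.7%), against 8.09% of the 27025 genes in the table. Those 27025 include genes too low to be tested in microglia. Of the 8213 with a promoter that were tested with tau fibrils, 991 held CACGTG, a larger share. The longer TCACGTGA, which contains CACGTG, was present in 4 of the 35 (11.4%) against 1.12%. In the 250 bases before the start site alone the counts were 8 (22.9%, against 6.86%) and 3 (8.57%, against 0.907%). The windows below run 5′ to 3′ on the strand of the gene, and capitals mark the E-box. Lamp1 is shown for its 4 E-boxes, Cln3, Mcoln1, Atp6v0d1 and Atp6v1a for the longer form, and Atp6v0b for its pair.
Lamp1, chr8:13159092-13159159, + strand: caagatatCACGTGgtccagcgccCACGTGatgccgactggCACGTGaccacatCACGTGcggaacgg
Cln3, chr7:126583343-126583393, - strand: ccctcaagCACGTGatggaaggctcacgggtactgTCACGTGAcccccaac
Mcoln1, chr8:3500440-3500488, + strand: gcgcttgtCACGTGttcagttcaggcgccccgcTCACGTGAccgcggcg
Atp6v0d1, chr8:105566053-105566076, - strand: tactgcggTCACGTGAgacgcggt
Atp6v1a, chr16:44139376-44139399, - strand: tttttaaaTCACGTGAtaggctta
Atp6v0b, chr4:117887334-117887373, - strand: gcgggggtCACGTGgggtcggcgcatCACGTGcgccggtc
The windows lie from 157 bases before the start site (Cln3) to 12 after it (Atp6v0d1). Gaa, Glb1 and Lgmn held 1 CACGTG each. The consensus bound by NF-κB, searched on both strands, was matched in 6 of the 35 promoters (17.1%) against 5.14% of all genes, in Grn, Neu1, Psap, Scarb2, Tfe3 and Lgmn. Of the 8213 tested with tau fibrils, 537 held the consensus, again a larger share than over all genes. Before the start site alone it was matched in 5 (14.3%, against 4.46%), since the match of Tfe3 lies after its start site. The matches of Grn and Tfe3 are shown because these genes come up with tau fibrils further on, and capitals mark the match. Neu1, not shown, rose with tau fibrils too, while Psap, Scarb2 and Lgmn were not among the genes that rose.
Grn, chr11:102430375-102430400, + strand: gcattccaGGAGAGTCCCgcctctac
Tfe3, chrX:7762668-7762693, + strand: cttcctgtGGAGTTTCCCcagcccaa
A match describes these letters only, not a bound site.

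The libraries held 1672052 to 8349128 counts from 3′ tag sequencing, and values are given as CPM, which are read counts relative to library size, scaled within each comparison. Sums of cell type markers and values of Ddx3y were instead scaled over all 34 libraries together. Levels of different genes are not compared, since 3′ counts depend on the tail site. Reads outside genes made up 12.4% to 38.3%. No label says whether libraries of a group came from separate cultures, so p-values measure the spread between these libraries. Summed microglia markers were between 5702 CPM (vehicle) and 44552.5 CPM (PS19) and every one of the 12 was detected in each group. Ikbkb, the targeted gene, was at 25.4, 24.9, 18.7 and 22.5 CPM in Ikbkb-/- and at 54.4, 45.9, 53.4 and 55.0 in Ikbkb+/+, with no overlap (log2 fold change -1.20 ± 0.12 SE, FDR 6.3e-07). In the IkbkbCA experiment its difference was 0.17 (FDR 0.41), and 3′ counts need not see the transgene. Some libraries stood apart from their groups. PS19 replicate 2 had the most reads outside genes. Replicates 4 and 5 of IkbkbWT held the Y-linked gene Ddx3y at 1.15 and 2.04 CPM where the other IkbkbWT libraries had 143 to 177, and replicates 4 and 5 of both IkbkbCA groups had more neuron marker counts than the rest. A gene was called at a false discovery rate (FDR) under 0.05 by edgeR over all genes tested. In bulk libraries, fewer cells of a type and less RNA per cell cannot be told apart.

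The list took 2.14% to 2.25% of counts in the tau fibril libraries and 1.62% to 2.16% with vehicle. In PS19 libraries it took 2.36% to 2.47% in replicates 1, 3 and 4 and 1.69% in replicate 2, against 1.62% to 1.75% in NTG. The shares of the Ikbkb groups overlapped, at 2.77% to 3.36% in IkbkbWT, 2.58% to 3.06% in IkbkbCA, 3.09% to 3.41% in Ikbkb+/+ and 3.14% to 3.51% in Ikbkb-/-.

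**Figure D1:**
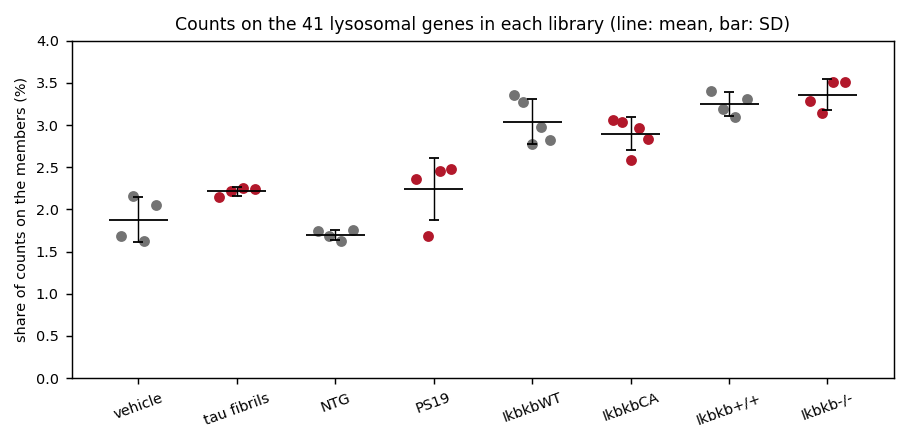
Share of all counts (%) that fell on the 41 lysosomal genes in each of the 34 libraries, by group; points are libraries, the line the mean and the bar the SD. PS19 replicate 2, at 1.69%, lies with the NTG libraries, and the other PS19 libraries lie between 2.36% and 2.47%.

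With tau fibrils every lysosomal gene that was called was higher. Cell type markers moved as well, as given further on. Of the 39 genes tested, 13 rose and 0 fell, against a background of 14.5% of all 10408 genes that rose and 15.4% that fell (29.9% in all). In 13 members every treated library lay above every vehicle library, and in 1 below, against 14.1% and 14.2% of all genes. The 13 genes that rose were the luminal proteins Grn and Npc2, the transcription factor Tfe3, the hydrolases Asah1, Neu1 and Man2b1, the membrane proteins Cln3, Lamp2 and Cd68, the GTPase Rab7 and the pump subunits Atp6ap1, Atp6ap2 and Atp6v1b2. Cd68, Atp6ap1 and Atp6v1b2 overlapped between groups, whereas Lamp1, Lipa and Atp6v1e1 did not overlap but were not called. The median log2 fold change of the list was 0.21, beside -0.011 over all genes, and 30 of the 39 estimates were positive. Manba and Atp6v0c were too low to be tested. Without trimmed-mean scaling the median of all genes moved to -0.16 and that of the list to 0.058, so the list stood higher than all genes by a like amount on either scale. On that scale 8 members were called higher and 1 lower, Smpd1 (FDR 0.013), with 1057 genes higher and 2254 lower in all. With no filter on low counts the same number rose, 13, and Psap was called lower (-0.47, FDR 0.0050).

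Progranulin and the cholesterol carrier NPC2, soluble proteins of the lumen, changed most. Grn was at 3647, 3907, 4717 and 4245 CPM with tau fibrils and 1992, 2121, 1494 and 1437 with vehicle. Npc2, which hands cholesterol to NPC1, was at 2864, 2995, 3386 and 3424 CPM and 1280.5, 1690.0, 1276 and 1366. Every treated library lay above every vehicle library for both genes, and the log2 fold changes were 1.23 ± 0.14 (FDR 1.5e-07) for Grn and 1.17 ± 0.13 (FDR 6.9e-08) for Npc2. Psap, the precursor of the saposins that help lipid hydrolases, was at 1162, 1132, 525 and 229 CPM with tau fibrils and 668, 839.8, 1019.6 and 1751 with vehicle. Its libraries spread over several-fold within each group, so the difference of -0.49 ± 0.30 (FDR 0.24) was within the spread. With no filter on low counts it was called, as above.

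Among the hydrolases, 3 of 12 tested rose. Acid ceramidase, Asah1, was at 129.7, 124, 162 and 153 CPM with tau fibrils and 71.1, 75.0, 83.2 and 76.4 with vehicle, which did not overlap (0.90 ± 0.14, FDR 1.1e-05). The sialidase Neu1 rose by 0.44 ± 0.13 (FDR 0.013) and the alpha-mannosidase Man2b1 by 0.42 ± 0.13 (FDR 0.014). The acid sphingomyelinase Smpd1, which makes the ceramide that Asah1 cleaves, was lower in all 4 treated libraries (70.3, 63.1, 60.7 and 41.1 CPM against 77.5, 71.1, 75.2 and 86.7) but missed the threshold (-0.40 ± 0.16, FDR 0.068). The remaining 8 hydrolases, Hexa, Gaa, Glb1, Gusb, Lipa, Ppt1, Tpp1 and Lgmn, had estimates from 0.0052 to 0.34, none called.

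Of the 8 membrane proteins, 3 rose. Cln3, a protein of the lysosomal membrane lost in juvenile Batten disease, was at 63.1, 62.7, 79.0 and 71.0 CPM against 36.2, 36.4, 45.9 and 28.9 and did not overlap (0.90 ± 0.17, FDR 2.0e-04). Its exons overlap those of Apobr on the other strand, and whether counting used strand is not given in the sources used here. Lamp2 was at 541, 480.3, 558 and 571 CPM with tau fibrils and 392, 349, 367 and 352 with vehicle (0.56 ± 0.12, FDR 7.7e-04). Cd68, a scavenger-type glycoprotein of phagocytes, rose by 0.37 ± 0.13 (FDR 0.028). Lamp1 was at 1911, 2132, 1944 and 1968 CPM against 1432, 1686, 1525 and 1770.0, again without overlap, but just missed the threshold (0.31 ± 0.12, FDR 0.056). Npc1, Scarb2, the receptor that brings glucocerebrosidase to lysosomes, the tetraspanin Cd63 and the calcium channel Mcoln1 had estimates from -0.17 to 0.42, none called.

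Of the transcription factors Tfe3 rose and Tfeb was not called. Tfe3 was at 96.1, 101, 149 and 132 CPM with tau fibrils and 63.0, 69.1, 63.4 and 48.5 with vehicle, a rise of 0.97 ± 0.16 (FDR 3.2e-05) with no overlap. Tfeb was at 38.4, 21.6, 38.1 and 27.8 CPM and 19.2, 16.5, 30.3 and 20.2, which overlapped (0.56 ± 0.23, FDR 0.071). Rab7, which drives fusion of late endosomes with lysosomes, rose by 0.56 ± 0.13 (FDR 0.0011), and Rab34, which acts in the positioning of lysosomes, was at 45.0, 37.9, 37.3 and 41.1 CPM against 41.4, 35.8, 47.8 and 37.6 (-0.0081 ± 0.18, FDR 0.98).

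In the proton pump the accessory and V1 parts held the 3 rises. The accessory subunits Atp6ap2 and Atp6ap1 rose by 0.59 ± 0.14 (FDR 0.0018) and 0.40 ± 0.13 (FDR 0.026), and the V1 subunit Atp6v1b2 by 0.36 ± 0.13 (FDR 0.041). None of the 4 V0 subunits tested was called, with estimates from -0.30 to 0.21. Atp6v0d1, the widely expressed d subunit, was at 129.7, 108, 183 and 152 CPM and 124, 119, 133 and 121, and Atp6v0d2, the form typical of osteoclasts and some macrophages, at 8.41, 13.98, 9.53 and 6.41 and 16.3, 11.4, 9.46 and 10.9. Both overlapped between groups. The other 5 V1 subunits had estimates from -0.17 to 0.25.

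**Figure D2:**
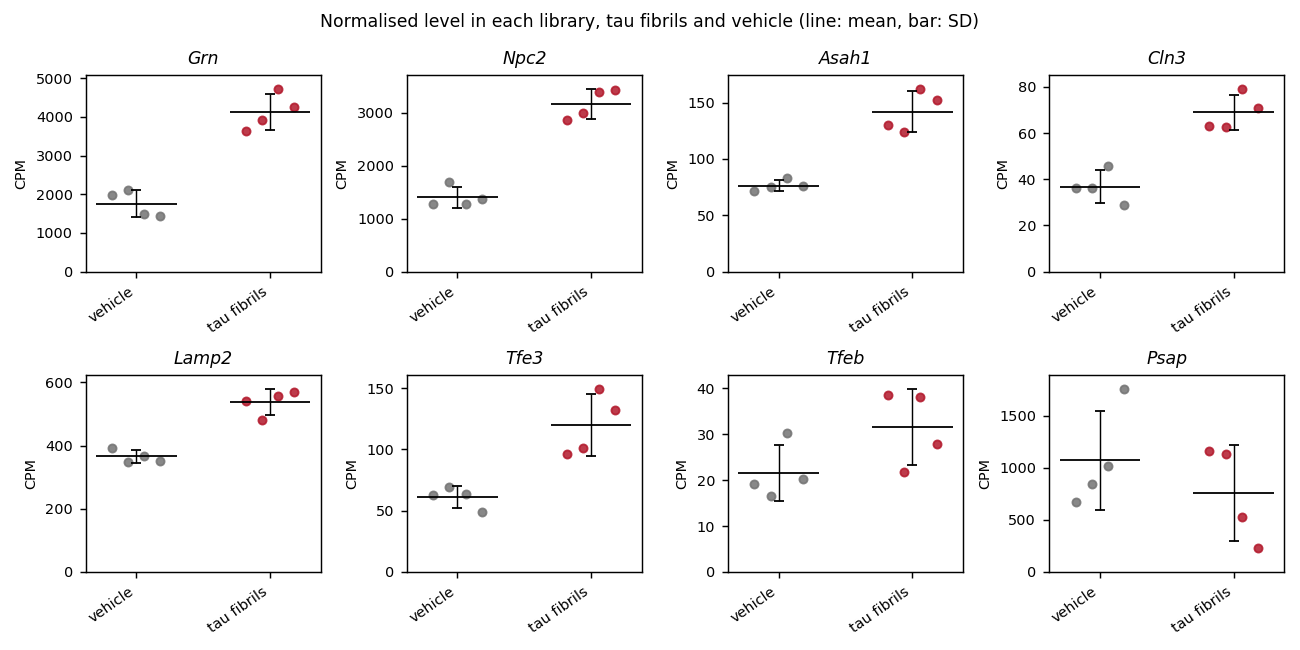
CPM of 8 lysosomal genes in each vehicle (grey) and tau fibril (red) library; the line is the mean and the bar the SD of 4 libraries, and each axis starts at 0. Grn, Npc2, Asah1, Cln3, Lamp2 and Tfe3 separate the groups, Tfeb and Psap do not.

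Of the 13 calls, 5 were lost without trimmed-mean scaling. Man2b1, Neu1, Cd68, Atp6v1b2 and Atp6ap1 had FDR values from 0.11 to 0.30 without that scaling. With 1 library left out at a time, Cd68, Atp6v1b2 and Atp6ap1 were called in 4 of 8 fits each and the remaining 10 genes in all 8. Each of the 3 lost its call without vehicle replicate 1 and without vehicle replicate 3. Cd68 also lost it without tau fibril replicate 3 or 4 (FDR 0.056 to 0.095 over its 4 lost calls), Atp6v1b2 without tau fibril replicate 2 or 4 (0.076 to 0.17) and Atp6ap1 without tau fibril replicate 3 or vehicle replicate 4 (0.055 to 0.11). Marker genes moved with the treatment too. Summed microglia markers were at 13184 to 15747 CPM with tau fibrils and 5702 to 7562 with vehicle (8 of 12 markers higher), summed astrocyte markers at 394 to 462 against 760 to 803 (6 of 8 lower), and reads outside genes at 16.3% to 22.2% against 23.3% to 29.1%. Their part in the lysosomal result was not tested.

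Of 82 further lysosomal genes, 73 were tested with tau fibrils, and 26 rose and 6 fell, with a median of 0.23. The highest were Acp5, tartrate-resistant acid phosphatase, at 4.10, Tfec, a relative of TFEB, at 2.73, and the acid phosphatase Acp2 at 1.86. The lowest were Atp6v0e2, a small V0 subunit, at -0.87, the sulfatase Arsb at -0.85 and the GTPase Rragd at -0.80.

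In PS19 microglia no lysosomal gene passed the threshold, yet most estimates leaned upward. All 41 genes were tested and 0 were called, where edgeR called 0.0707% of 11323 genes. The study, however, listed Lamp1, Grn and Rab34 among the genes upregulated in PS19 microglia. Here the edgeR estimates of these genes were positive, but none was called. The calls for these genes thus differ from those of the study, and the reason was not tested. An unadjusted p under 0.05 was reached by 11 of the 41, which is 26.8%, against 8.63% of all genes. The estimates were positive for 31 genes and negative for 10, with a median of 0.22 beside 0.0042 over all genes. In 8 genes the lowest PS19 value exceeded the highest NTG value, where 3.29% of all genes showed this, and in 0 genes were all PS19 values below the NTG values, against 2.47%. Grn and Rab34 are among these 8 genes. The list was chosen with earlier results of these data known and holds Lamp1, Grn and Rab34. These shares are therefore no independent test of an upward lean.

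The 8 genes were Rab34, Gaa, Gusb, Grn, Glb1, Npc2, Hexa and Cd68. Rab34 was at 33.1, 29.0, 31.5 and 32.0 CPM in PS19 and 17.1, 21.6, 19.5 and 15.0 in NTG (0.77 ± 0.20, FDR 0.26). Gaa, the alpha-glucosidase that degrades lysosomal glycogen, was at 87.8, 111, 122 and 134 CPM against 77.8, 65.5, 73.0 and 60.6 (0.71 ± 0.19, FDR 0.27). Gusb, beta-glucuronidase, was at 444, 287, 425 and 441 CPM against 245, 256, 231 and 245 (0.71 ± 0.19, FDR 0.27). In Gusb the 3 high PS19 libraries stood well above the fourth, replicate 2, which lay only a little over the NTG range. Grn was at 2001, 2538, 1828 and 2725 CPM in PS19 and 1429, 1029.7, 1515 and 1594 in NTG (0.71 ± 0.21, FDR 0.36). Npc2, at 1857, 1775, 2008 and 1752 CPM against 1178, 1402, 1139 and 1372, had PS19 libraries close to each other (0.54 ± 0.17, FDR 0.42). The ganglioside hydrolase subunit Hexa differed by 0.52 ± 0.18, the beta-galactosidase Glb1 by 0.55 ± 0.18 and Cd68 by 0.25 ± 0.17, none called.

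Other members varied widely among the PS19 libraries. Lamp1 was at 2523, 1692, 2538 and 2159.6 CPM in PS19 and 1577, 1725, 1398 and 1472 in NTG, and replicate 2 lay inside the NTG range (0.53 ± 0.19, FDR 0.46). Psap was at 1448, 1070.3, 3448 and 3783 CPM against 1211, 1020.5, 946 and 1499.9 (1.06 ± 0.36, FDR 0.44). Cd63 was at 3712, 1684, 2053 and 1217 CPM against 1440.2, 1095, 905 and 1079 (0.94 ± 0.30, FDR 0.42). Psap was high in replicates 3 and 4 and Cd63 highest in replicate 1, so no single library was highest for both genes. Scarb2, at 548, 444, 942 and 992 CPM, and Man2b1, at 517, 614, 833 and 1338, were also higher in replicates 3 and 4 than in 1 and 2. Lgmn, the asparaginyl endopeptidase, was at 2059.5, 690.0, 2872 and 2529 CPM in PS19 and 2902, 2682, 3035 and 3160.5 in NTG, low in replicate 2 (-0.53 ± 0.33, FDR 0.69).

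The regulators and the pump showed no call in PS19. Tfeb was at 52.6, 69.2, 31.1 and 45.7 CPM in PS19 and 41.1, 38.2, 52.6 and 36.7 in NTG, and Tfe3 at 108, 197, 68.7 and 94.6 and 133, 92.5, 155 and 136, all overlapping. Atp6v0d2 was at 10.4, 3.73, 6.82 and 1.06 CPM against 3.51, 1.54, 0.787 and 1.67 (1.65 ± 0.70, FDR 0.53), at few counts. Atp6v0d1 was at 126, 95.3, 72.6 and 90.3 CPM against 93.3, 67.5, 90.3 and 98.4 (0.14 ± 0.21). The 13 pump genes ran from -0.23 for Atp6v1h to 1.65 for Atp6v0d2, and the V0 subunits had a median of 0.40.

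**Figure D3:**
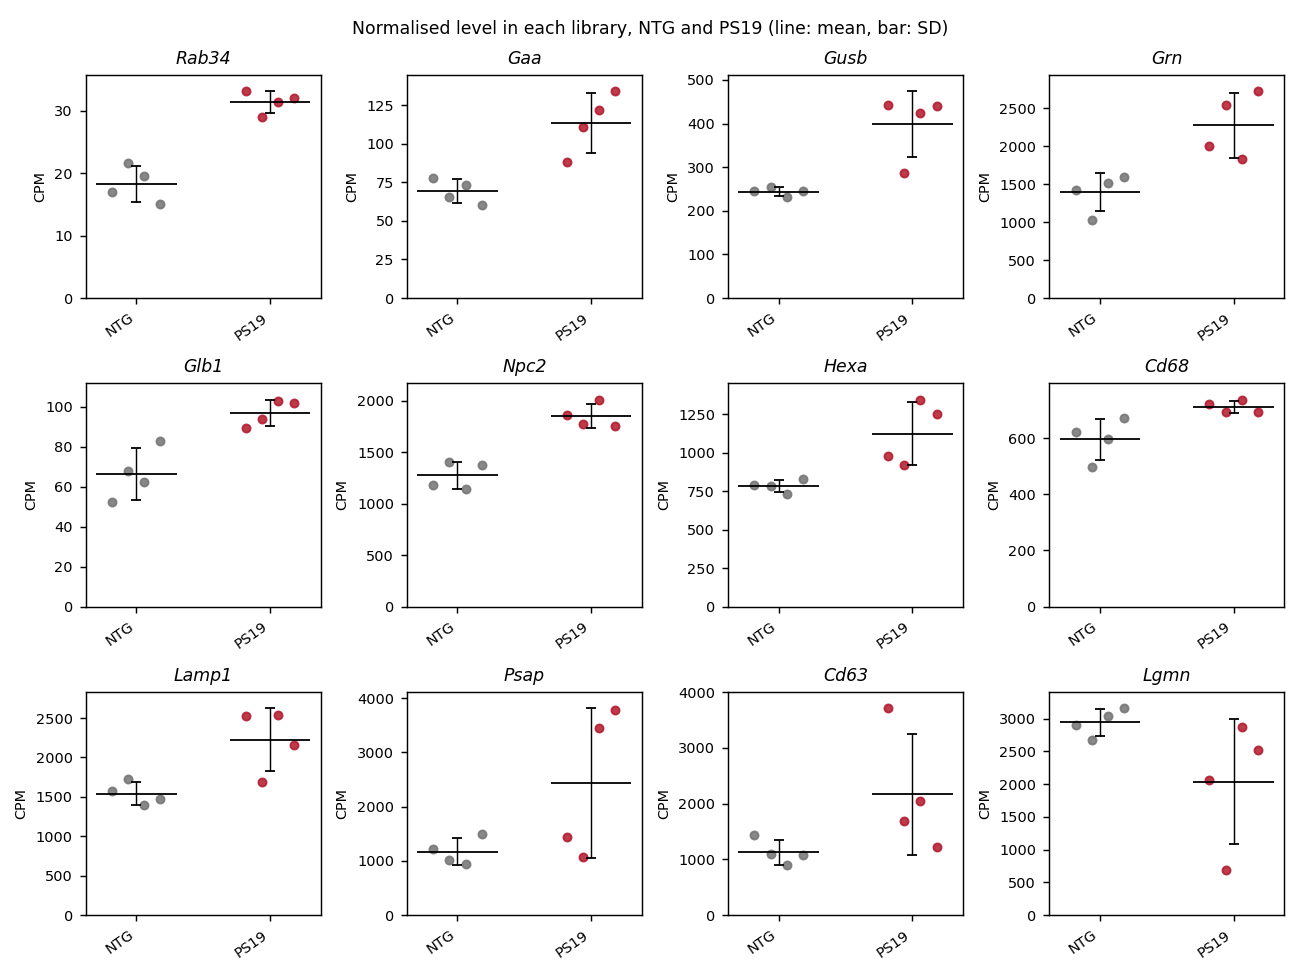
CPM of 12 lysosomal genes in each NTG (grey) and PS19 (red) library, with mean and SD of 4 libraries and axes from 0. The groups separate in the first 8 panels, while Lamp1, Psap, Cd63 and Lgmn overlap.

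DESeq2 called 4 members in PS19 (Gusb, Npc2, Gaa and Grn, with 0.91% of all genes called), and leaving out PS19 replicate 2 left 1 call, Gusb (0.458% of all genes). Reads outside genes made up 38.3% in PS19 replicate 2, the most of any library, and 23.4% to 34.8% in NTG. In PS19 replicates 1, 3 and 4 they made up 22.1%, 20.8% and 19.9%, below every NTG library. With this share as a covariate 0 members were called and the median was 0.23. Library totals were 3892830 to 7615105 counts in PS19 and 1864382 to 5108921 in NTG. Granulocyte markers summed to 424 to 2607 CPM in PS19 and 1528 to 2134 in NTG, and astrocyte markers to 880 to 1988 against 669 to 1011, and their part was not tested. None of the 73 other lysosomal genes tested was called, with a median of 0.040.

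In the IkbkbCA experiment the share of members called was near that of all genes. Of 40 genes tested, Npc2 and Lamp2 rose and Atp6v0a1 and Man2b1 fell, that is 4 genes, against a background of 14.5% of 11697 genes called (7.31% higher and 7.16% lower). In 2 members all IkbkbCA libraries lay above the controls and in 1 below, against 6.38% and 6.34% of all genes. The median was -0.042, beside -0.047 over all genes, and 18 estimates were positive and 22 negative. The fall of Atp6v0a1 was the largest change of the list.

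Atp6v0a1 encodes an a subunit of the V0 sector, the part that steers the pump to its membrane. It was at 132, 126, 113, 118 and 100.1 CPM in IkbkbCA and 283, 294, 262, 313 and 262 in IkbkbWT, with a wide gap between groups (-1.26 ± 0.090, FDR 5.2e-06). Man2b1 was at 221, 229, 143, 165 and 169 CPM against 318, 333, 218, 239 and 234 and overlapped (-0.53 ± 0.16, FDR 0.044). Replicates 1 and 2 were the highest in both groups for Man2b1. Npc2 was at 3242, 3124, 2465, 2912 and 2553 CPM in IkbkbCA and 1995, 1991, 1982, 1832 and 1609 in IkbkbWT, without overlap (0.60 ± 0.10, FDR 0.0021). Lamp2 was at 704, 693, 633, 759 and 745 CPM against 603, 626, 560.3, 556 and 532, also without overlap though the gap was small (0.30 ± 0.078, FDR 0.024).

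Several further genes lay just beyond the threshold. Atp6v0d1 was at 237, 237, 198, 191 and 159 CPM in IkbkbCA and 313, 283, 243, 266 and 236 in IkbkbWT (-0.39 ± 0.12, FDR 0.051). Tfeb was at 83.1, 91.5, 51.9, 49.3 and 55.6 CPM against 101, 111, 79.4, 105 and 83.7 (-0.54 ± 0.18, FDR 0.074), and Tfe3 at 125, 131, 127, 98.6 and 86.4 against 112, 121, 114, 111 and 93.0 (0.046 ± 0.12). Rab34 was at 58.3, 57.7, 66.2, 61.9 and 51.3 CPM against 50.9, 51.2, 41.5, 51.8 and 51.9 (0.26 ± 0.092, FDR 0.090). These 4 genes overlapped between the groups. Atp6v0d2 was at 7.13, 7.10, 29.1, 6.43 and 4.76 CPM against 17.7, 14.8, 14.6, 18.5 and 17.3 (-0.60 ± 0.43, FDR 0.41), and every IkbkbCA library but replicate 3 lay below all IkbkbWT libraries. Without IkbkbCA replicate 3 the difference was -1.35 (FDR 2.3e-04). Grn, at 3578, 3447, 1976, 3322 and 2619 CPM against 2989, 3149, 2722, 2676 and 2295, and Lamp1, at 4334, 4144, 3155, 4042 and 3631 against 4297, 4044, 2920.4, 3575 and 3410.4, overlapped (0.11 ± 0.16 and 0.081 ± 0.12).

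The count of called genes depended on how library sets were treated. Replicates 4 and 5 of both groups had summed neuron markers of 98.0 to 121 CPM where the other 6 had 8.16 to 24.4, and replicate 3 had the highest oligodendrocyte sums, 5432 CPM in IkbkbWT and 2054 in IkbkbCA. With these 3 sets as a covariate, a choice made after seeing the data, 12 members were called, 3 higher and 9 lower. Over all genes 24.3% were called in either direction. Atp6ap2 joined the higher genes (0.32, FDR 0.016). Tfeb (-0.57), Npc1 (-0.44), Atp6v0d1 (-0.40), Hexa (-0.35), Lgmn (-0.34), Cln3 (-0.28) and Cd68 (-0.25) joined the lower ones. Npc2 and Atp6v0a1 were called in all 19 alternatives, Lamp2 in 13 and Man2b1 in 9. Lamp2 lost its call without replicate 4 or 5 of either group (FDR 0.056 to 0.066), and Man2b1 without any of 8 libraries, all but IkbkbWT replicate 3 and IkbkbCA replicate 2 (0.053 to 0.14). Without trimmed-mean scaling, where the median of all genes was -0.11, 1 member was called higher and 8 lower. On that scale 753 genes were higher and 1252 lower in all. Markers of border-associated macrophages summed to 489 to 1034 CPM in IkbkbCA and 1393 to 1966 in IkbkbWT (4 of 5 tested lower). Microglia markers summed to 18891 to 28310 CPM against 15150 to 21444 (5 of 12 higher, 2 lower), and reads outside genes made up 12.4% to 13.99% against 15.9% to 18.7%. Their part in the lysosomal values was not tested.

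Of 72 further lysosomal genes tested, 6 rose and 7 fell in IkbkbCA. The receptor Igf2r (1.76), Acp2 (1.15) and the amidase Aga (0.69) were highest, and Sort1 (-0.90), the acetyltransferase Hgsnat (-0.81) and the sialic acid exporter Slc17a5 (-0.76) lowest. Of the other a subunits of V0, Tcirg1 had an estimate of 0.41 (FDR 0.066) and Atp6v0a2 of -0.063 (FDR 0.75), both named after their values were seen.

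With deletion of Ikbkb the share of members called was again near the background. Of 40 genes tested, Npc2, Scarb2 and Lamp2 rose and Atp6v0a1 and Npc1 fell, 5 genes against 14.6% of 11242 genes called (7.64% higher and 6.96% lower). The median was -0.025, beside 0.00017 over all genes. In 4 genes every Ikbkb-/- library lay above every Ikbkb+/+ library (9.44% of all genes) and in 4 below (8.67%), shares near the background too.

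Npc2 was at 2549, 2425, 3189 and 3231 CPM in Ikbkb-/- and 2011, 1833, 1811 and 1898 in Ikbkb+/+ (0.59 ± 0.098, FDR 3.5e-04). Scarb2 was at 639, 668, 669.6 and 771 CPM against 531, 505, 508 and 473 (0.45 ± 0.080, FDR 7.2e-04), and Lamp2 at 712, 707, 741 and 729.9 against 622, 612, 638 and 608 (0.22 ± 0.070, FDR 0.044). The groups did not overlap in any of the 3. Atp6v0a1 was at 172, 156, 145 and 150.4 CPM in Ikbkb-/- and 288, 306, 209 and 244 in Ikbkb+/+ (-0.75 ± 0.11, FDR 6.8e-05). Npc1, the membrane partner of NPC2 in cholesterol export, was at 303, 309.6, 303 and 306 CPM against 361, 348, 383 and 394 (-0.28 ± 0.073, FDR 0.013). Both were lower in every deleted library than in every control, and Npc1 varied little among the former.

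The other genes of interest were not called. Grn was at 3965, 3452, 4619 and 4307 CPM in Ikbkb-/- and 4593, 3733, 2679 and 3286 in Ikbkb+/+ (0.19 ± 0.13), and Lamp1 at 3775, 3841, 4063 and 4391 against 3397, 3448, 3581 and 3707 (0.19 ± 0.082, FDR 0.15), the latter without overlap. Tfeb was at 55.9, 51.8, 57.0 and 64.0 CPM against 55.9, 78.5, 56.0 and 61.1 and Tfe3 at 111, 90.4, 118 and 106 against 146, 115, 94.4 and 115 (both -0.14). Rab34 was at 44.1, 50.8, 53.7 and 52.9 CPM against 50.7, 48.4, 47.3 and 45.6 (0.091 ± 0.095). Neither the regulators nor Rab34 separated the groups. Atp6v0d1 was at 249.6, 219, 275 and 252 CPM against 282, 289, 272 and 298 (-0.20 ± 0.082, FDR 0.12), and Atp6v0d2 at 25.98, 23.8, 13.1 and 14.6 against 20.5, 21.1, 20.7 and 22.5 (-0.19 ± 0.18). The beta-mannosidase Manba had the lowest estimate, -1.17 ± 0.40 (FDR 0.063), at 35.6, 16.02, 6.56 and 6.27 CPM against 15.7, 23.8, 51.9 and 26.4.

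Lamp2, with the smallest change, lost its call whichever library was left out (FDR 0.061 to 0.12). Npc1 lost it without Ikbkb+/+ replicate 3 (-0.27, FDR 0.052). The Y-linked gene Ddx3y was at 155 to 173 CPM in Ikbkb-/- and 35.0 to 69.4 in Ikbkb+/+, without overlap, so its level moved with the genotype and cannot be told apart from it. With Ddx3y as a covariate 2 members were called, Atp6v0a1 and Man2b1, both lower, and the median moved to -0.16. Npc2 (0.59, FDR 0.36), Lamp2 (0.25, FDR 0.66), Scarb2 (0.32, FDR 0.60) and Npc1 (-0.021, FDR 0.98) lost their calls there, and Man2b1 was at -1.20 (FDR 0.0052). Lamp2, Tfe3, Atp6ap1 and Atp6ap2 lie on the X chromosome. Markers of border-associated macrophages summed to 422 to 741 CPM in Ikbkb-/- and 1510 to 1849 in Ikbkb+/+ (5 of 5 tested lower), and oligodendrocyte markers to 704 to 846 against 413 to 528 (7 of 8 higher). Their part was not tested. Of 72 further lysosomal genes, 9 rose, with Laptm5 (0.60), Gpnmb (0.56) and Aga (0.54) highest, and 5 fell, with Tfec (-1.05), the galactosylceramidase Galc (-0.46) and Mitf (-0.38) lowest.

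**Figure D4:**
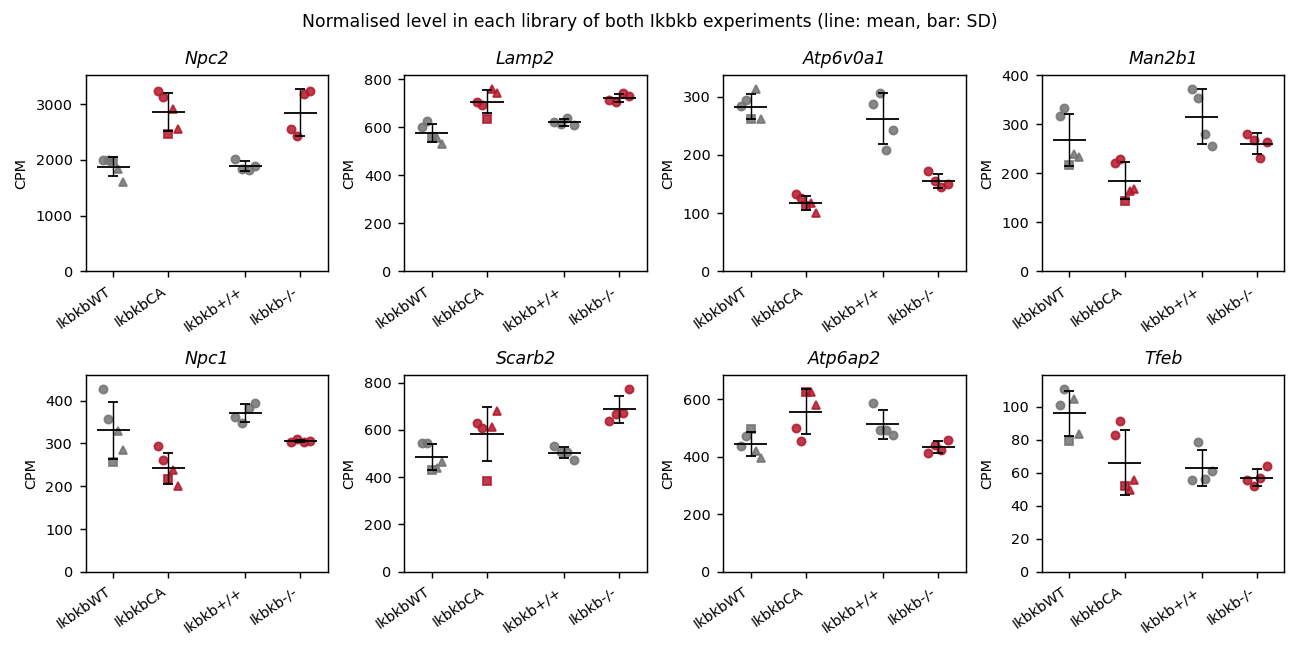
CPM of 8 lysosomal genes in each library of the IkbkbCA and deletion experiments, controls in grey and Cre groups in red, with mean and SD (5, 5, 4 and 4 libraries) and axes from 0. In the IkbkbCA experiment circles are replicates 1 and 2, squares replicate 3 and triangles replicates 4 and 5. Npc2 and Lamp2 are higher and Atp6v0a1 lower in both Cre groups without overlap.

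In the IkbkbCA and deletion experiments, which share no library, the same 3 members were called in the same direction. Npc2, Lamp2 and Atp6v0a1 make up 75.0% of the 4 calls of the first experiment and 60.0% of the 5 calls of the second. Over all genes, 575 were called in the same direction in both experiments, 33.98% of the first experiment's calls and 35.04% of the second's, and 42 in opposite directions. The deletion call of Lamp2 was lost in all 8 fits with 1 library left out, and both of its calls were lost without trimmed-mean scaling (FDR 0.056 and 0.080). With Ddx3y as a covariate the deletion calls of Npc2 (FDR 0.36) and Lamp2 (FDR 0.66) were lost. The Cre allele was present in both mutant groups and absent from both controls. The shared calls therefore cannot be assigned to the Ikbkb state rather than to the Cre allele. The difference between the 2 effects was called for 1 of 40 members, where 3.12% of all genes were (2.23% higher and 0.899% lower). This was Atp6ap2, the prorenin receptor, at 501, 453, 625, 625 and 578 CPM in IkbkbCA against 438, 472, 495, 419 and 395, and at 413, 440.5, 424 and 458 in Ikbkb-/- against 587, 492, 494 and 475. Its IkbkbCA effect exceeded its deletion effect by 0.58 ± 0.14 (FDR 0.029). Without trimmed-mean scaling it was 0.54 (FDR 0.052), and 0 members were then called higher and 1 lower. The call held in 10 of 18 fits with 1 library left out (FDR 0.050 to 0.075 in the others, which lacked IkbkbWT replicate 4 or 5, IkbkbCA replicate 4, Ikbkb+/+ replicate 1 or 3, or Ikbkb-/- replicate 1, 2 or 3). For Atp6v0a1 the difference was -0.49 ± 0.15 (FDR 0.087), for Npc2 0.026 ± 0.15 and for Lamp2 0.091 ± 0.098. A difference that was not called does not show that the 2 effects are equal.

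The tau fibril effect exceeded the IkbkbCA effect in 9 of 40 members and fell short of it in 0, where 9.42% of all genes differed (5.86% higher and 3.55% lower). The 9 were Cln3 (1.10), Grn (1.04), Tfeb (1.03), Atp6v0a1 (1.00), Man2b1 (0.87), Tfe3 (0.84), Asah1 (0.68), Rab7 (0.61) and Cd68 (0.54). Of these, Atp6v0a1 did not rise with tau fibrils (-0.19, FDR 0.33) but fell in IkbkbCA (-1.26), and Tfeb was called in neither comparison. Npc2 and Lamp2, which rose in both, differed by 0.50 ± 0.16 (FDR 0.061) and 0.19 ± 0.12 (FDR 0.38). Against the PS19 effect the tau fibril effect was larger for Asah1 (0.85 ± 0.26, FDR 0.046) and smaller for Rab34 (-0.86 ± 0.25, FDR 0.031), 2 of 41 members where 8.07% of all genes differed (4.42% higher and 3.65% lower). Without trimmed-mean scaling 0 members were called higher and 2 lower, with Asah1 at 0.75 (FDR 0.085) and Rab34 at -0.96 (FDR 0.017). With 1 library left out, Tfeb was called in 8 of 18 fits, those without tau fibril replicate 2 or 4, vehicle replicate 3, IkbkbWT replicate 3 or 5 or IkbkbCA replicate 1, 2 or 3 (FDR 0.054 to 0.11 in the rest). Rab7 lost its call without tau fibril replicate 3 or 4, vehicle replicate 1, 2 or 4, IkbkbWT replicate 4 or IkbkbCA replicate 4 or 5 (0.051 to 0.075). Asah1 against PS19 lost it without tau fibril replicate 3 or 4, vehicle replicate 1, 2 or 4 or NTG replicate 2 (0.050 to 0.091). Rab34 kept it only without vehicle replicate 1, 2 or 4 or NTG replicate 2 (0.051 to 0.12 in the rest). Each effect comes from its own experiment, with its own controls, and experiment and treatment cannot be told apart.

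**Figure D5:**
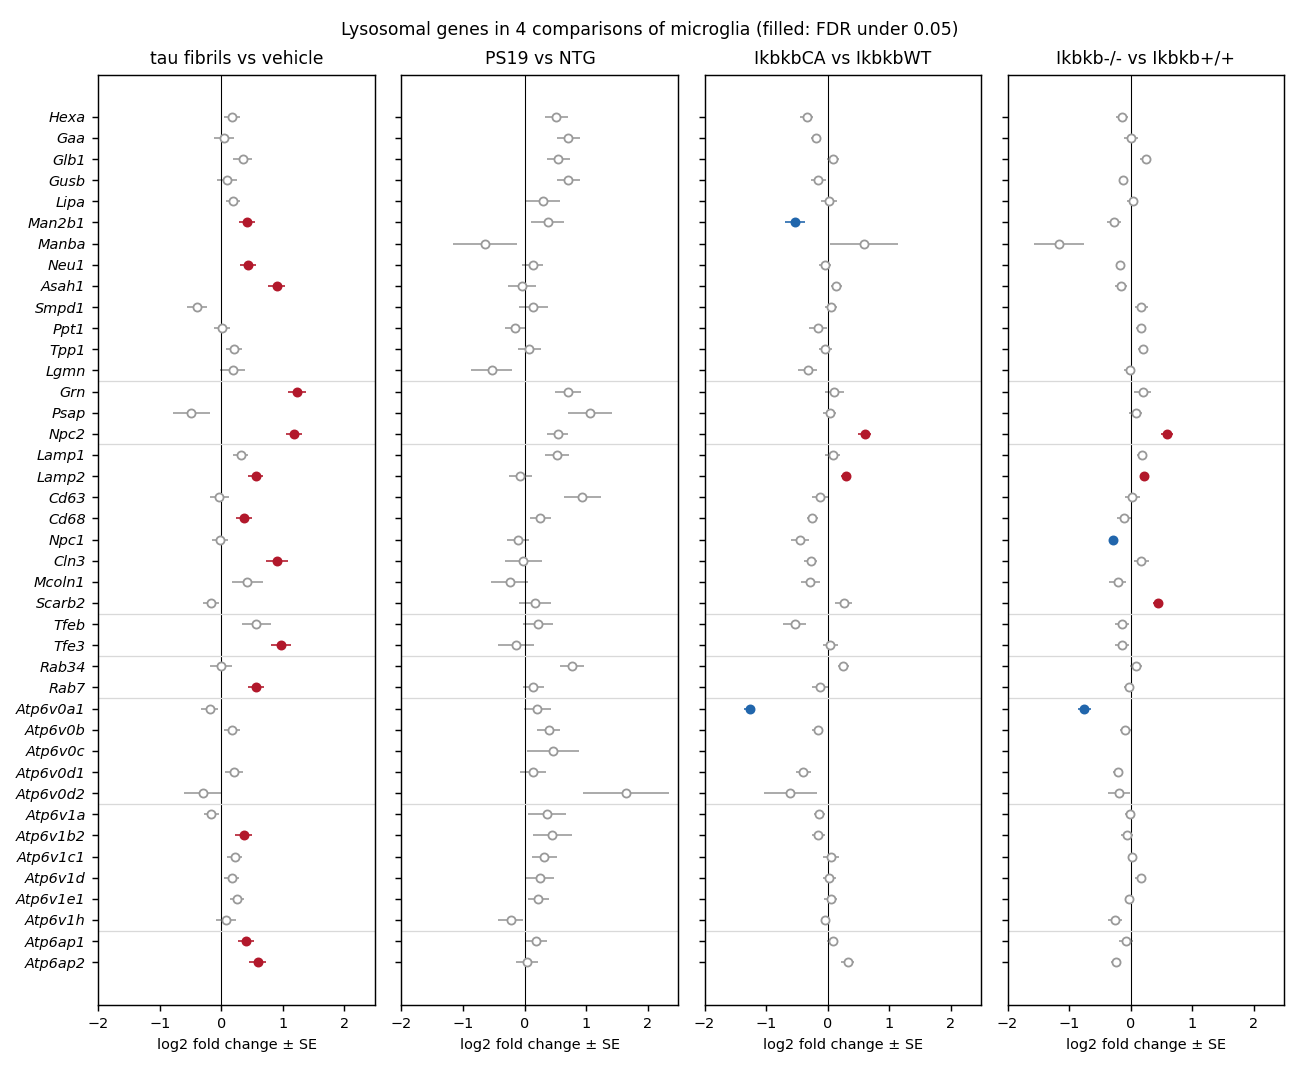
Log2 fold change with SE of each lysosomal gene in the 4 comparisons, ordered by role (hydrolases, luminal proteins, membrane proteins, transcription factors, Rab GTPases, V0, V1, accessory subunits); filled red points are called higher, filled blue points lower, and a missing point was not tested. Tau fibrils have 13 red and 0 blue points, PS19 none of either, and Npc2, Lamp2 and Atp6v0a1 are filled alike in both Ikbkb panels.

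Across the 4 comparisons Npc2 was higher in each, called in 3, with log2 fold changes of 1.17, 0.54, 0.60 and 0.59. Grn was called with tau fibrils alone, and its PS19 difference missed the threshold. Of the 13 genes that rose with tau fibrils, Npc2 and Lamp2 also rose in both Ikbkb experiments, and Man2b1 fell in IkbkbCA. The V1 subunits had no call outside the tau comparison, and their medians were 0.19 with tau fibrils, 0.28 in PS19, -0.0037 in IkbkbCA and -0.015 in Ikbkb-/-. Atp6v0c, the ring-forming c subunit, was counted 419 times in all and has processed copies in the genome, so its level is uncertain. Of the 9 genes with CACGTG in the promoter, Cln3 rose with tau fibrils and none of the 9 was called in another comparison, where 13.3% of all 991 tested genes with CACGTG rose with tau fibrils. Of the 6 with the NF-κB consensus, Grn, Neu1 and Tfe3 rose with tau fibrils and Scarb2 rose in Ikbkb-/-, where 19.9% of all 537 tested genes with the consensus rose with tau fibrils and 8.50% of 541 in Ikbkb-/-. Of all tested genes with a promoter entry, 14.7% rose with tau fibrils and 7.78% in Ikbkb-/-. Ppt1 overlaps Cap1 on the other strand, and Glb1 overlaps Tmppe on the same strand, so their counts are uncertain likewise.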

How the data were processed

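The labels and the study's methods describe 3′ tag RNA sequencing (QuantSeq) of microglia, mapped on the BlueBee platform to the GENCODE GRCm38 mouse genome. The submitters' processing notes name STAR, RSEM, edgeR and limma without versions. In the study's methods, STAR mapping is given for the cortex libraries and not for the microglia. The authors deposited 1 table per library of raw read counts for 47643 gene IDs, which were used as deposited. Lines that name no gene were left out of library sizes. The share of reads outside genes, 12.4% to 38.3%, is taken over reads in genes, outside genes and ambiguous between genes. The 24 cortex libraries of the series were not used here. The 41 genes and the other gene lists were chosen with earlier results of these data known.

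Within each comparison genes were filtered (filterByExpr, minimum count 10, minimum total 15), scaled by trimmed mean of M values and tested with edgeR 4.0.16 quasi-likelihood F tests (R 4.3.3), Benjamini-Hochberg adjusted over all genes tested. Standard errors, given after ±, are the absolute log2 fold change divided by the square root of F. Means are over libraries with their SD in the plots. Effects of 2 experiments were compared as interaction contrasts in 1 fit of their libraries. The code was tested on simulated data. Alternatives were RLE or total-count scaling, other filters, DESeq2 1.42.0, limma 3.58.1 (voom), covariates and leaving out each library. Every member called in a comparison is named. Values in every library are given for the 3 called members with the smallest FDR in each direction, for Lamp1, Grn, Rab34, Tfeb, Tfe3, Atp6v0d1 and Atp6v0d2, and for further members chosen after their values were seen. Of the further lysosomal genes the 3 highest and 3 lowest called are named. No pair of libraries of a group (56 pairs) was identical. Promoter sequences are from RefSeq (GRCm38.p6), annotation from GENCODE M21. Counting strand is not given in the sources used here.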

Additional observations from a re-analysis of the deposited data

Results flagged for a closer look

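In 82 groups of 4 or 5 libraries, 3 values stood apart from the rest of their group by Dixon's criterion, which chance meets in about 1 in 20 groups. Gusb in PS19 replicate 2 was at 287 CPM where the other PS19 libraries were at 425 to 444. Rab34 in IkbkbWT replicate 3 was at 41.5 CPM against 50.9 to 51.9 in the others. Atp6v0d2 in IkbkbCA replicate 3 was at 29.1 CPM against 4.76 to 7.13.

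The effects of 2 experiments differed by edgeR interaction tests for 12 values. The IkbkbCA effect on Atp6ap2 exceeded the deletion effect by 0.58 on the log2 scale (FDR 0.029). The tau fibril effect differed from the PS19 effect by 0.85 for Asah1 (FDR 0.046) and by -0.86 for Rab34 (FDR 0.031). It exceeded the IkbkbCA effect by 1.10 for Cln3 (FDR 9.4e-04), 1.04 for Grn (0.0064), 1.03 for Tfeb (0.047), 1.00 for Atp6v0a1 (5.0e-04), 0.87 for Man2b1 (0.014), 0.84 for Tfe3 (0.017), 0.68 for Asah1 (0.0085), 0.61 for Rab7 (0.040) and 0.54 for Cd68 (0.023).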

How the results depend on the processing

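No called value of the 41 genes changed sign under any alternative run. The 13 tau fibril calls numbered 10 to 15 with 1 library left out, and the median of 0.21 was 0.058 with total-count scaling and 0.19 to 0.28 with 1 library left out. In PS19 the 0 calls became 4 with DESeq2, 2 with no filter on low counts and 1 without PS19 replicate 2 (0 to 1 in all), and the median was 0.14 to 0.29. The 4 IkbkbCA calls became 9 with total-count scaling, 9 with DESeq2, 2 with no filter, 7 with at least 10 counts in every library, 10 in 1 fit of 18 libraries and 12 with the library sets as a covariate, an alternative chosen after seeing the data. They numbered 2 to 8 with 1 library left out, 2 without IkbkbWT replicate 4 or 5 or IkbkbCA replicate 4 or 5 and 8 without IkbkbCA replicate 2, and the median was -0.090 to 0.0038. The 5 deletion calls became 3 in the fit of 18 libraries, 2 with Ddx3y as a covariate and 3 to 7 with 1 library left out, 3 without Ikbkb+/+ replicate 3. The deletion median moved from -0.025 to -0.056 with total-count scaling, to -0.16 with Ddx3y and to -0.050 to -0.018 with 1 library left out. The 1 difference between IkbkbCA and deletion became 2 with DESeq2, 2 with the library sets and 0 to 2 with 1 library left out. The 2 differences between tau fibrils and PS19 became 5 with DESeq2, 4 with limma-voom and quality weights, 4 with no filter and 0 to 4 with 1 library left out, 0 without tau fibril replicate 3 or 4, 4 without PS19 replicate 2 and 1 without replicate 1 or 2 of tau fibrils, 2, 3 or 4 of vehicle or 1, 3 or 4 of NTG. The 9 differences between tau fibrils and IkbkbCA became 15 with the library sets and 7 to 11 with 1 library left out. Counts over all genes moved as well. In the IkbkbCA comparison 1692 genes were called, 2846 with the library sets, and 753 higher and 1252 lower with total-count scaling. For most settings the count over all genes is not given, so a shift in members called need not be particular to the list. The cause of these shifts was not tested. Of the single-gene values, 1474 of 1572 with 1 library left out and 1242 of 1311 under the other alternatives kept their side of the threshold. Values called in neither fit are among these even where their sign changed. Gaa with tau fibrils, for example, was at 0.041 and reached -0.11 under an alternative. No paired analysis was possible because the labels number no replicates, and the numbers used here follow the order of the samples. Atp6v0c, Atp6v0d2 and Manba had the fewest counts of the 41 genes (419, 1925 and 2304 in all), which limits what their values show.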
